A study of Homo sapiens with 4 samples.

Results

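The 44 genes described here make and guard proteins of the secretory pathway: 7 encode the signal recognition particle and its receptor, 9 the translocon and the TRAP complex beside it, 7 the oligosaccharyltransferase, 8 chaperones and lectins, 4 protein disulfide isomerases, 6 stress sensors and transcription factors, and 3 the machinery of endoplasmic reticulum-associated degradation. They were listed by gene name and function out of 19323 protein-coding genes, and each was measured as the sum of its annotated transcripts. The RNA came from cultures of WI-38, an established fibroblast line from human fetal lung with a finite number of divisions in culture. Each of 4 groups held 1 library: senescent mitoplasts and senescent whole cells at population doubling level 60, and young mitoplasts and young whole cells at level 21. Mitoplasts are mitochondria without their outer membrane. They were prepared by CHAPS lysis, hypotonic swelling and repeated RNase A digestion of RNA outside the inner membrane. The labels call cells senescent or young by their doubling level. All libraries come from 1 cell line, and nothing says whether they come from separate cultures.

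The endoplasmic reticulum receives proteins that the signal recognition particle has caught at the ribosome by their signal peptide. They are threaded through the SEC61 channel, given N-linked sugars by the oligosaccharyltransferase, and folded by chaperones, lectins and disulfide isomerases; proteins that fail are pulled back out and degraded. When unfolded proteins build up, the sensors IRE1, PERK and ATF6 start the unfolded protein response, in which ATF6 and spliced XBP1 act on promoters that carry the endoplasmic reticulum stress element. Fibroblasts secrete much collagen and depend on this machinery, and protein load in the reticulum has been studied in senescent cells.

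The promoter sequences are shown because the stress element marks the textbook targets of ATF6 and XBP1 among these genes. RefSeq promoter windows of 250 bases before to 50 bases after a start site, build GRCh38.p14, were found for 41 of the 44 genes. The element ERSE was searched as the box CCAAT, 9 bases of any kind and the box CCACG, and its relative ERSE-II as ATTGG, 1 base of any kind and CCACG, on both strands. ERSE was held by 6 of the 41 genes, beside 0.14% of the 15009 coding genes with an entry and 0.0769% of 35116 single windows, since a gene can have several. ERSE-II was held by 3 of the 41 genes, beside 0.0999% of coding genes and 0.0541% of windows. Each match is shown 5′ to 3′ on the strand of the gene with its flanks, in capitals; a match in the opposite orientation reads as the reverse complement of these letters. HSPA5, on chr9:125241371-125241429 of the minus strand, has its ERSE 66 bases before the start site. HSP90B1, on chr12:103930196-103930359 of the plus strand, has 1 ERSE in each orientation. CALR lies on chr19:12938364-12938422 and CANX on chr5:179698758-179698816, both on the plus strand. For CANX, which has further windows with a match, the first listed is shown. PDIA6 lies on chr2:10812833-10812891 and XBP1 on chr22:28800583-28800641, both on the minus strand.
HSPA5 (ERSE): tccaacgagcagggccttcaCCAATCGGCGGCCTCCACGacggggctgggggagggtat
HSP90B1 (ERSE): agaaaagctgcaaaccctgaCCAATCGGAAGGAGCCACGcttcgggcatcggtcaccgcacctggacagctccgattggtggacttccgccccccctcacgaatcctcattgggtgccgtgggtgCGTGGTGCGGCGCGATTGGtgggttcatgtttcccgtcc
CALR (ERSE, opposite orientation): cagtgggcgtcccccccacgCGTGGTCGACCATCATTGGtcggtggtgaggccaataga
CANX (ERSE): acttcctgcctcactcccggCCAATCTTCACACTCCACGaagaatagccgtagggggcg
PDIA6 (ERSE): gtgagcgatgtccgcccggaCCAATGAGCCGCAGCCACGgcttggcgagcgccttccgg
XBP1 (ERSE): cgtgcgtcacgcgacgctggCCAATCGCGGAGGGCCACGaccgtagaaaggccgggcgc

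The ERSE-II holders were HYOU1 on chr11:119057254-119057410 of the minus strand, with 2 matches, SDF2L1 on chr22:21642094-21642144 of the plus strand and HERPUD1 on chr16:56932005-56932055 of the plus strand.
HYOU1 (ERSE-II, opposite orientation): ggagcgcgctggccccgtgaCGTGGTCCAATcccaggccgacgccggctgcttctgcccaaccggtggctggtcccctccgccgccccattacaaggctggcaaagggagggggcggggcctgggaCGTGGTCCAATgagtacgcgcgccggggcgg
SDF2L1 (ERSE-II, opposite orientation): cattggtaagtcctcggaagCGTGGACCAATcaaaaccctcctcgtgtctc
HERPUD1 (ERSE-II): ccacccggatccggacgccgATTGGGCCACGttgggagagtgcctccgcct
The 9 holders are the chaperones HSPA5, HSP90B1, HYOU1 and SDF2L1, the lectins CALR and CANX, the isomerase PDIA6, the transcription factor XBP1 and the degradation factor HERPUD1. A match describes letters in this window only. Of 2 further stress motifs, the XBP1 site TGACGTGG occurred in 5 of the 41 genes and in 1.09% of coding genes (0.729% of windows), and the amino acid response motif that ATF4 binds, searched as TGATG, 1 base of any kind and AAT, in 1 of the 41 genes and in 0.886% of coding genes (0.991% of windows).

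**Figure D1:**
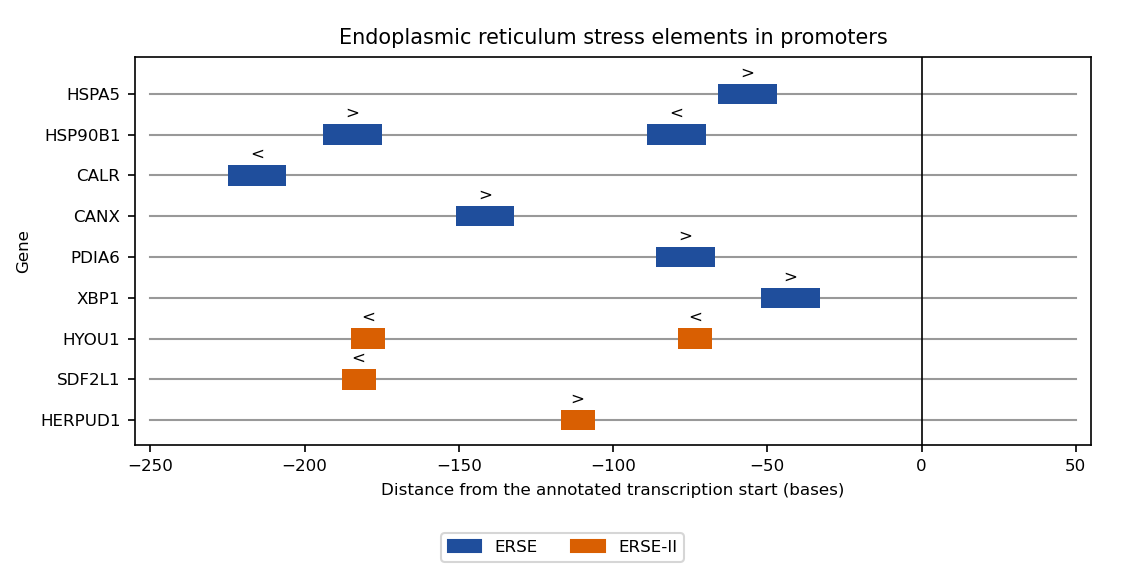
Positions of the ERSE and ERSE-II matches in 1 promoter window for each of the 9 genes that hold them, the first listed with a match, in bases from the annotated start site; blue boxes are ERSE, orange boxes ERSE-II, and the arrowheads above them give their orientation. HSP90B1 and HYOU1 hold 2 matches each, and every match drawn lies before the start site; the further CANX windows are not drawn.

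Levels are in FPKM, which scales fragments to the length of the transcript and to the library, so genes can be set side by side. How many fragments a library held is not stated in the sources used here, so no counting error can be attached to a value. Annotated transcripts held 2.48% of the summed FPKM in senescent mitoplasts and 7.20% in young mitoplasts, against 23.0% in senescent and 45.8% in young whole cells; assembled transcripts without a name held the rest. Young whole cells had 1871 coding genes that reached 50 FPKM; of these, senescent mitoplasts listed 14.4% at 0, young mitoplasts 6.79% and senescent whole cells 2.30%. A 0 here can be a failed estimate and is given as "listed at 0". All 10 fibroblast markers were at 1 FPKM or more in both whole-cell libraries, 8 in senescent and 9 in young mitoplasts. Of 7 blood and immune markers, 0 reached that level in either whole-cell library or in senescent mitoplasts, and 1 did in young mitoplasts. Epithelial markers at that level numbered 2 of 7 in senescent and 4 in young mitoplasts, and 3 in each whole-cell library; endothelial markers numbered 2 of 5 in senescent mitoplasts and 1 in each other library. Of 15 RNAs encoded by the mitochondrial genome, all were above 0 in both young libraries and 13 were listed at 0 in each senescent library. Their sum was 66211 FPKM in senescent mitoplasts and 27848 FPKM in senescent whole cells, and 634869 FPKM in young mitoplasts and 176550.0 FPKM in young whole cells. The part of these marker levels in the values below was not tested.

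Fewer of the 44 genes were found in mitoplasts than in whole cells, as was so for coding genes in general. Of the 44 genes, 36 were above 0 in senescent and 38 in young whole cells, while 30 were above 0 in senescent and 33 in young mitoplasts. At 5 FPKM or more were 34 members in senescent and 35 in young whole cells, against 24 in senescent and 29 in young mitoplasts. Coding genes at that level numbered 6374 in senescent and 6763 in young whole cells, against 4448 in senescent and 5797 in young mitoplasts. The median of the 44 genes stood at 31.4 FPKM in senescent and 30.3 FPKM in young whole cells, while in mitoplasts it stood at 9.72 FPKM (senescent) and 19.0 FPKM (young). P4HB, the catalytic chain of protein disulfide isomerase and also a subunit of collagen prolyl hydroxylase, was the highest of them in every library, at 473 FPKM in senescent and 609 FPKM in young mitoplasts, against 1802 FPKM in senescent and 2161 FPKM in young whole cells. Without it the other genes summed to 1249 FPKM in senescent mitoplasts and 1390.2 FPKM in young mitoplasts, against 2527 FPKM in senescent and 2397 FPKM in young whole cells. At the other end, SRP19, PDIA3, ATF4 and DDIT3 were listed at 0 in all 4 libraries. In these bulk samples, fewer cells that use a gene and less of its RNA per cell cannot be told apart.

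**Figure D2:**
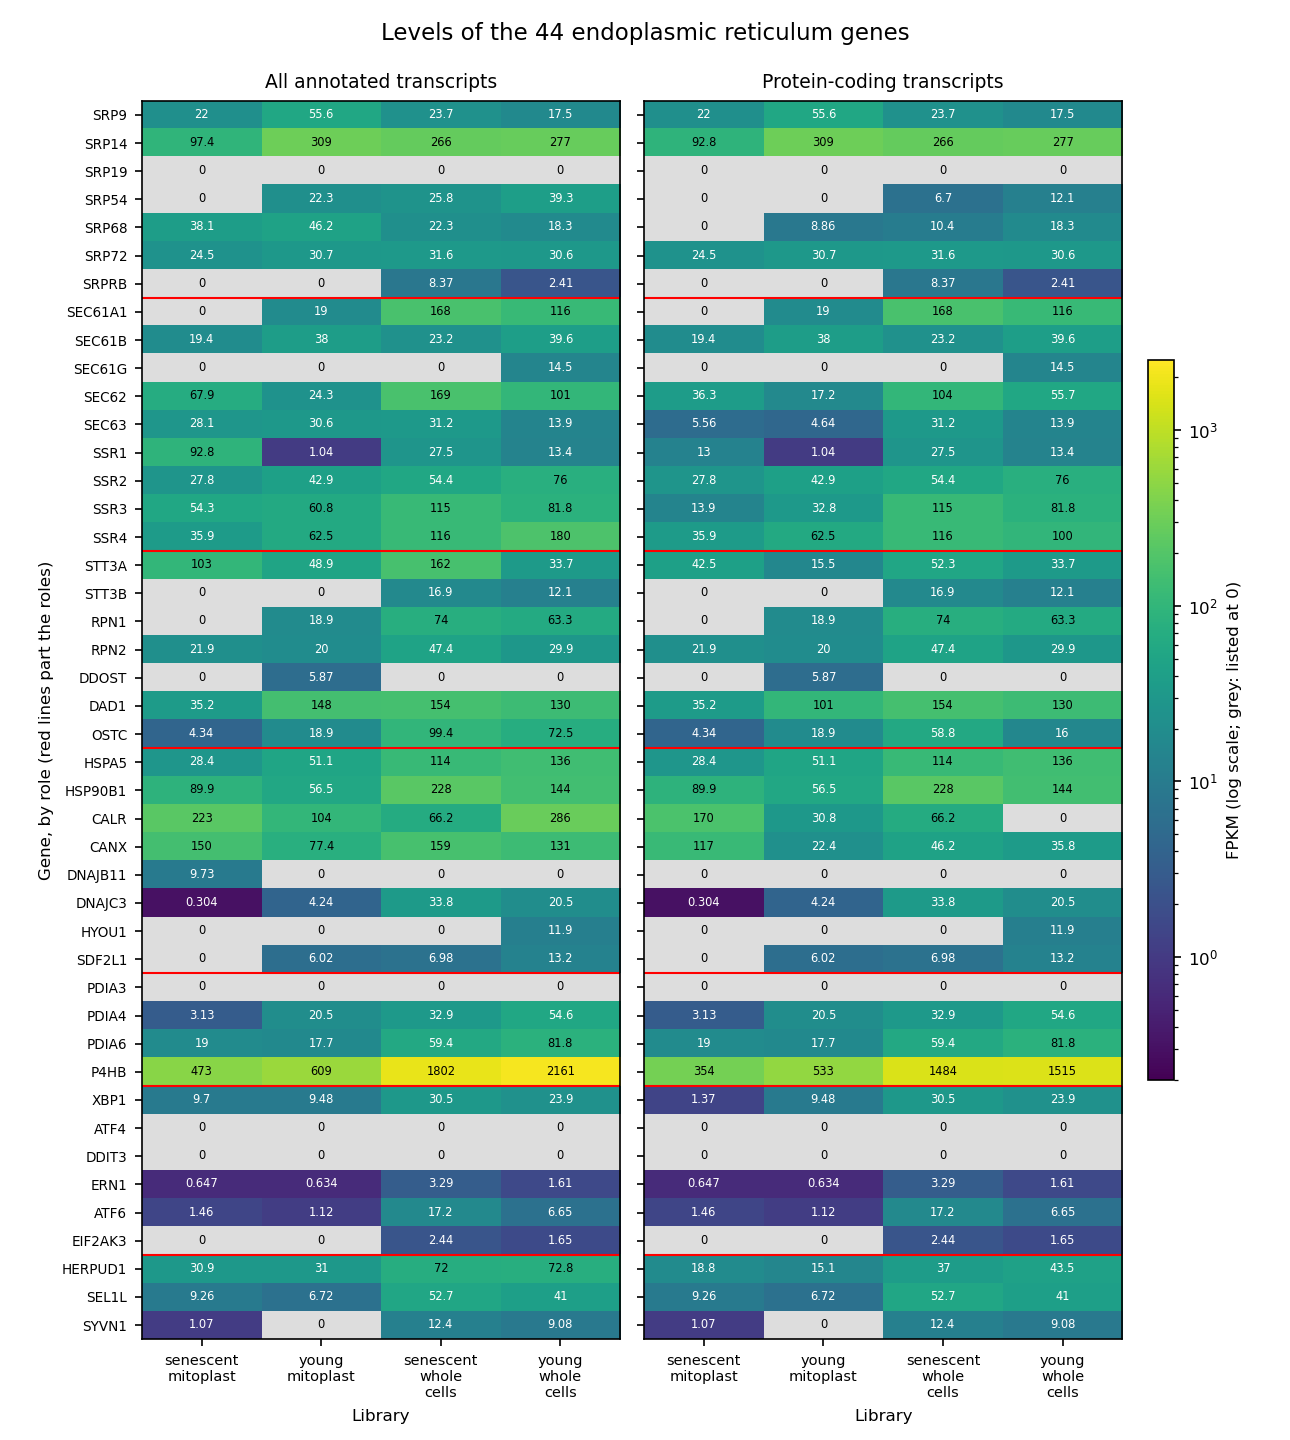
Level of each of the 44 genes in each library in FPKM on a log colour scale, summed over all annotated transcripts (left) and over protein-coding transcripts (right); red lines part the roles and grey cells are listed at 0. P4HB is the highest in every library, at 1802 and 2161 FPKM in senescent and young whole cells, and most genes are lower in the mitoplast columns.

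How far senescence went with a different level of these genes was asked first in whole cells. Ratios are log2 of (FPKM + 1) in senescent over (FPKM + 1) in young cells, a scale that understates differences of low genes, and a gene counted as higher or lower past a log2 ratio of 1 or −1. With 1 library per group no difference has a replicate check and none was tested, and the library and the condition cannot be told apart. Of the 34 genes that were above 0 in both libraries and averaged 5 FPKM or more, 4 were higher, 1 was lower and 29 were neither. Among all 6465 coding genes compared the same way, 10.6% were higher and 20.0% lower. The members' median log2 ratio was 0.31, beside −0.25 for the coding genes. The share of higher members, 11.8%, lay near the background, and the share of lower members, 2.94%, below it. Rescaled so that the median ratio of coding genes came near 0, 5 of the 34 were higher and 1 lower, beside 13.0% and 16.0% of coding genes. From coding transcripts alone, 4 of 33 were higher and 0 lower, beside 10.8% and 19.5% of coding genes. With assembled and unmatched transcripts added, 2 of 35 were higher and 1 lower, beside 9.39% and 19.1%. The lower gene was CALR from annotated transcripts but SRP9, at −2.06, with the added ones, where CALR was at −0.73. SEC61G and HYOU1 were listed at 0 in senescent cells alone, 6 genes were listed at 0 in both libraries, and the sensors ERN1 and EIF2AK3 averaged below 5 FPKM.

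**Figure D3:**
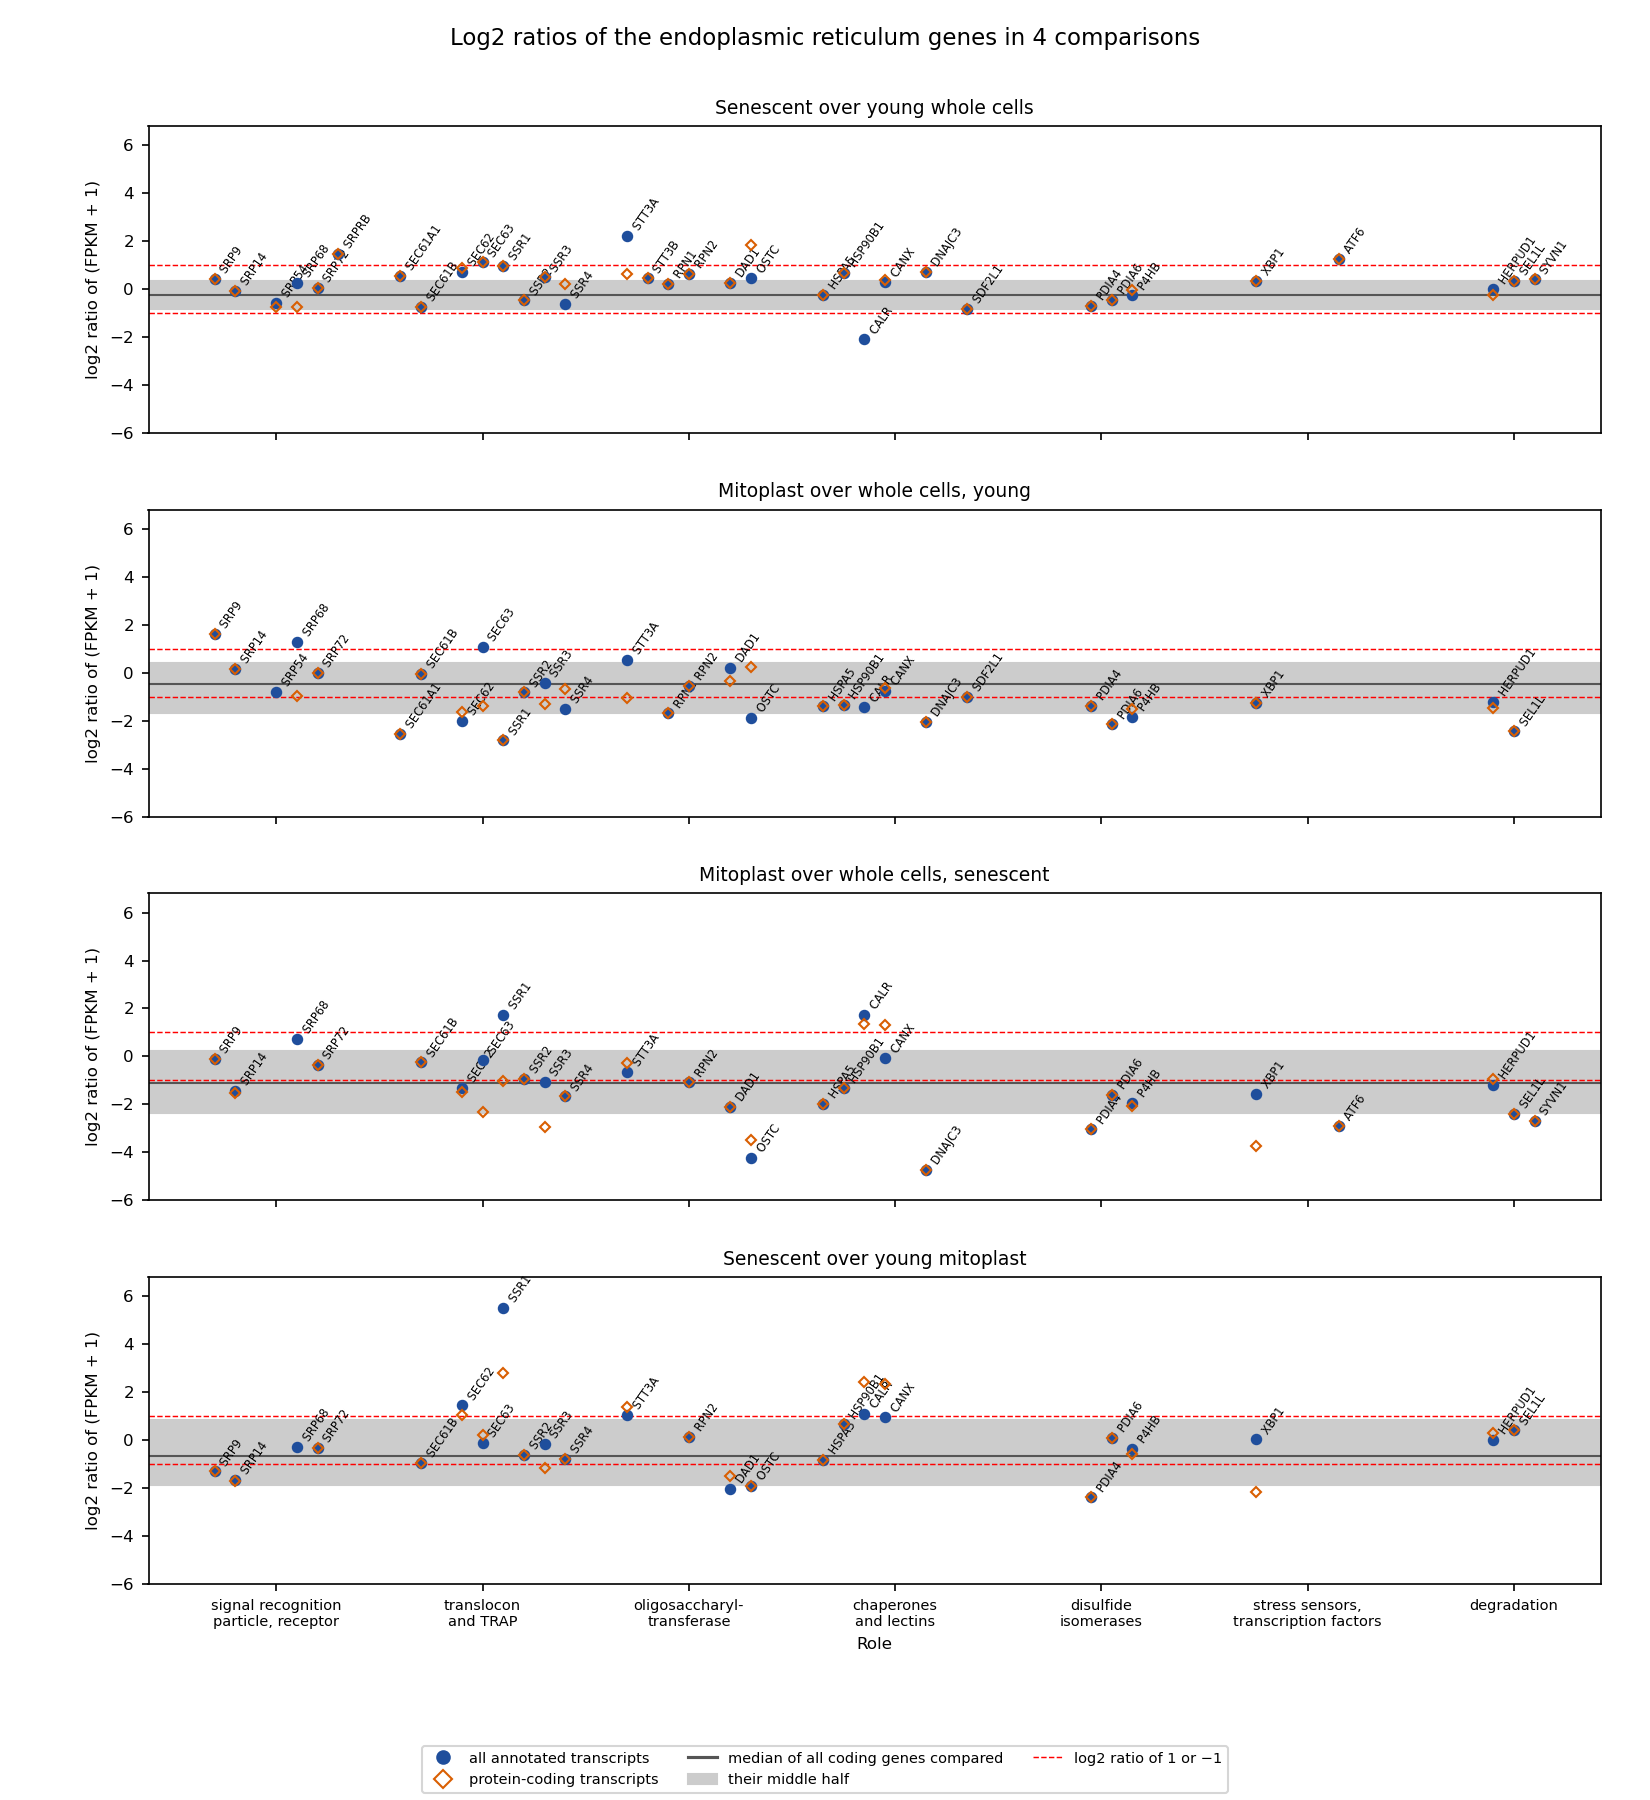
Log2 ratio of (FPKM + 1) for each gene compared, by role, in 4 comparisons; filled circles use all annotated transcripts, open diamonds protein-coding transcripts, the grey line and band are the median and the middle 50% of all coding genes, and dashed red lines mark 1 and −1. STT3A is highest at 2.23 and CALR lowest at −2.09 in senescent over young whole cells, and most genes lie below 0 in both mitoplast over whole-cell panels.

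At the first step of the pathway, SRP14, which with SRP9 forms the particle's translation-arrest domain, was at 266 FPKM in senescent and 277 FPKM in young whole cells. SRP72, a core protein of the particle, was at 31.6 FPKM in senescent and 30.6 FPKM in young whole cells. SRP54, the subunit that binds the signal peptide, was at 25.8 FPKM in senescent and 39.3 FPKM in young whole cells. A nonsense-mediated decay transcript held 74.1% of the senescent and 69.3% of the young value of SRP54. All 3 lay within the threshold, at log2 ratios of −0.06, 0.04 and −0.59. SRPRB, the membrane-anchored receptor subunit, was at 8.37 FPKM in senescent and 2.41 FPKM in young whole cells, a log2 ratio of 1.46. That gene was counted as higher on a low level, and with assembled transcripts added its values were 8.37 FPKM in senescent and 6.53 FPKM in young whole cells. SRP9 was at 23.7 FPKM in senescent and 17.5 FPKM in young whole cells from annotated transcripts. Its young whole-cell value was 102 FPKM once an assembled transcript of its locus was added, which turned its log2 ratio to −2.06.

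In the translocon, SEC61A1, the channel itself, was at 168 FPKM in senescent and 116 FPKM in young whole cells. SEC62 and SEC63, the partners that take part in import after translation, were at 169 and 31.2 FPKM in senescent cells, against 101 and 13.9 FPKM in young cells. All 3 were at a higher value in senescent cells, but only SEC63 passed the threshold, at a log2 ratio of 1.11, with all of its FPKM in a coding transcript of 6411 nt; with assembled and unmatched transcripts added it was at 0.87. SEC61B, the tail-anchored channel subunit, was at 23.2 FPKM in senescent and 39.6 FPKM in young whole cells. SEC61G, the smallest channel subunit, was listed at 0 in senescent cells and at 14.5 FPKM in young cells. The TRAP complex, which assists the entry of some signal peptides, did not move as a block: SSR1 was at 27.5 FPKM in senescent and 13.4 FPKM in young cells, and SSR3 at 115 FPKM in senescent and 81.8 FPKM in young cells. SSR2 and SSR4 ran the other way, at 54.4 and 116 FPKM in senescent cells, against 76.0 and 180 FPKM in young cells. A retained-intron transcript of 427 nt, listed at 0 in senescent cells, held 79.1 FPKM of the young value of SSR4. From coding transcripts SSR4 was at 116 FPKM in senescent and 100 FPKM in young cells, a log2 ratio of 0.21. Only SSR2 then ran the other way. SSR1 lay just inside the threshold, at 0.98.

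The glycosylation enzyme held the highest of these ratios in whole cells. STT3A, the catalytic subunit that works beside the translocon, was at 162 FPKM in senescent and 33.7 FPKM in young whole cells, a log2 ratio of 2.23. Of its senescent value, 67.7% lay in a processed transcript of 617 nt without a reading frame, and from coding transcripts it was at 52.3 FPKM in senescent and 33.7 FPKM in young cells. STT3B, the catalytic subunit that acts after translocation, was at 16.9 FPKM in senescent and 12.1 FPKM in young cells. RPN1 and RPN2, the ribophorins, were at 74.0 and 47.4 FPKM in senescent cells, against 63.3 and 29.9 FPKM in young cells. DAD1, a small subunit, was at 154 FPKM in senescent and 130 FPKM in young cells. OSTC, which ties the STT3A form to the translocon, was at 99.4 FPKM in senescent and 72.5 FPKM in young cells from all transcripts. From coding transcripts alone OSTC was at 58.8 FPKM in senescent and 15.95 FPKM in young cells, a log2 ratio of 1.82. DDOST, another subunit, was listed at 0 in both. The 6 subunits compared were all at a higher value in senescent cells, with 1 past the threshold and a median log2 ratio of 0.45. Of all coding genes 10.6% were higher, at a median of −0.25. From coding transcripts STT3A lay within the threshold, at 0.62, and OSTC past it.

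Chaperones showed no common shift. HSPA5, the luminal Hsp70 also known as BiP and the usual readout of the unfolded protein response, was at 114 FPKM in senescent and 136 FPKM in young whole cells. HSP90B1, the luminal Hsp90, was at 228 FPKM in senescent and 144 FPKM in young cells. DNAJC3, a cochaperone of BiP, was at 33.8 FPKM in senescent and 20.5 FPKM in young cells, and SDF2L1, a stress-induced cochaperone, at 6.98 FPKM in senescent and 13.2 FPKM in young cells. None of these passed the threshold, with log2 ratios between −0.83 and 0.70. CANX, the membrane lectin calnexin, was at 159 FPKM in senescent and 131 FPKM in young cells, with 71.0% of the senescent and 72.6% of the young value in a nonsense-mediated decay transcript. HYOU1, a nucleotide exchange factor for BiP, was listed at 0 in senescent and at 11.9 FPKM in young cells; with assembled and unmatched transcripts it was at 29.5 FPKM in senescent and 35.7 FPKM in young cells, a log2 ratio of −0.27. DNAJB11, another BiP cochaperone, was listed at 0 in both libraries.

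CALR, the soluble lectin calreticulin, gave the only ratio counted as lower, and it rested on different transcripts in the libraries set against each other. It was at 66.2 FPKM in senescent and 286 FPKM in young whole cells, a log2 ratio of −2.09. The senescent value lay wholly in the coding transcript of 1903 nt. The young value lay wholly in a retained-intron transcript of 781 nt, and coding transcripts were listed at 0 there. With assembled transcripts of the locus the levels were 304 FPKM in senescent and 507 FPKM in young whole cells.

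The disulfide isomerases were at a lower value in senescent cells in all 3 genes compared, each within the threshold. PDIA4 was at 32.9 FPKM in senescent and 54.6 FPKM in young whole cells, PDIA6 at 59.4 FPKM in senescent and 81.8 FPKM in young cells, and P4HB at the levels given above. Their log2 ratios were −0.71, −0.46 and −0.26, beside a median of −0.25 for all coding genes. After rescaling they were −0.545, −0.285 and −0.089, beside a coding median of −0.084. P4HB rested mainly on a coding transcript of 353 nt, which held 69.7% of its value in senescent and 56.5% in young whole cells.

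Of the 3 sensors, ATF6, the sensor that is cut in the Golgi to release a transcription factor, was at 17.2 FPKM in senescent and 6.65 FPKM in young whole cells, a log2 ratio of 1.25. ERN1, which encodes the kinase and RNase IRE1, was at 3.29 FPKM in senescent and 1.61 FPKM in young cells. EIF2AK3, which encodes the kinase PERK, was at 2.44 FPKM in senescent and 1.65 FPKM in young cells. ERN1 and EIF2AK3 were too low to be compared. With assembled and unmatched transcripts ERN1 was at 3.29 FPKM in senescent and 3.38 FPKM in young whole cells, and EIF2AK3 at 5.02 FPKM in senescent and 3.97 FPKM in young whole cells. ATF4 and DDIT3, the transcription factors downstream of PERK, were listed at 0 and give no reading of that branch. In the degradation machinery, HERPUD1, a stress-induced scaffold, was at 72.0 FPKM in senescent and 72.8 FPKM in young cells. SEL1L, the adaptor of the ligase, was at 52.7 FPKM in senescent and 41.0 FPKM in young cells, and SYVN1, the ubiquitin ligase HRD1, at 12.4 FPKM in senescent and 9.08 FPKM in young cells.

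XBP1 RNA is the substrate of the sensor IRE1, which removes 26 bases from it. The stretch is shown with its flanks as annotated by GENCODE 29 on chromosome 22, with the 26 bases in capitals; because the flanks repeat some letters, 7 placements of the removed stretch give the same product.
XBP1 unspliced: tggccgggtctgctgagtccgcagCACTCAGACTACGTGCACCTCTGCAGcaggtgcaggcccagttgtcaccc
XBP1 spliced: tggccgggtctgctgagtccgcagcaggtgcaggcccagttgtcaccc
The annotated transcript of 1850 nt that keeps the 26 bases was at 0.695 FPKM in senescent and 9.48 FPKM in young mitoplasts, against 30.5 FPKM in senescent and 23.9 FPKM in young whole cells. A second transcript that keeps them, of 1824 nt, was at 0.673 FPKM in senescent mitoplasts and listed at 0 in the other libraries. A transcript of 1131 nt with the flanks joined was listed at 0 in all 4 libraries. Another such transcript, of 1794 nt, was not among the transcripts listed for any library. FPKM per transcript does not show reads across the joined flanks, so no share of spliced XBP1 can be given. In senescent mitoplasts 85.9% of the gene's 9.70 FPKM lay in a retained-intron transcript of 520 nt.

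Set against the promoter sequences above, no gene with a stress element was counted as higher in senescent whole cells. Of the 8 holders compared, 0 were higher and 1, CALR, was lower, on the different transcripts described above. The median log2 ratio of the holders was −0.13 and the highest 0.66, for HSP90B1. Of the 24 other genes with a promoter entry, 4 were higher and 0 lower, and their median was 0.41. Among all coding genes 10.6% were higher and 20.0% lower, at a median of −0.25. A list of 8 holders is too small to tell its shares from these. With assembled and unmatched transcripts, 9 holders were compared, 0 were higher and 0 lower, and their median was −0.25. Of 24 others, 2 were higher and 1 lower, at a median of 0.34, beside 9.39% and 19.1% of coding genes.

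Other genes of the pathway were counted from 3 lists of 80 genes in all. In senescent over young whole cells, 13 of the 55 compared were higher and 5 lower, and their median log2 ratio was 0.13, beside 10.6% higher and 20.0% lower among all coding genes. The highest was WFS1, an ion-homeostasis protein of the reticulum membrane, at 67.8 FPKM in senescent and 10.7 FPKM in young cells. TRAM1, a membrane protein beside the translocon, was at 109 FPKM in senescent and 27.6 FPKM in young cells. Their log2 ratios were 2.56 and 1.95, both on coding transcripts. Among those at a lower value, ASNS, asparagine synthetase and a target of ATF4, was at 3.45 FPKM in senescent and 12.4 FPKM in young cells, and CNPY3, a folding factor for Toll-like receptors, at 5.16 FPKM in senescent and 19.1 FPKM in young cells. The cytosolic chaperone list, set beside these for scale, had 0 of 26 genes higher and 2 lower, and the mitochondrial list 0 of 11 higher and 6 lower, against the same shares of coding genes.

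The comparison of mitoplasts with whole cells asks which RNAs accompany the mitochondrial interior after RNase treatment. In young cells the reticulum genes were mostly lower in mitoplasts. Of 30 genes compared, 17 were lower, 3 were higher and 10 were neither, with a median log2 ratio of −1.23. Among 6092 coding genes, 37.6% were lower and 11.6% higher, at a median of −0.49, so the share of lower members, 56.7%, was above the background share. From coding transcripts alone, 17 of 28 were lower and 1 higher, beside 34.1% and 10.3% of coding genes; with assembled and unmatched transcripts added, 19 of 32 were lower and 1 higher, beside 38.7% and 9.19%. A further 6 genes, SRPRB, SEC61G, STT3B, HYOU1, EIF2AK3 and SYVN1, were listed at 0 in young mitoplasts alone and DDOST in young whole cells alone; 5 were listed at 0 in both and 2, ERN1 and ATF6, averaged below 5 FPKM.

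The signal recognition particle had no gene counted as lower. Of its 5 genes compared, 2 were higher and 0 lower, at a median of 0.16, beside 11.6% and 37.6% of all coding genes. Of the 25 members outside that list, 1 was higher and 17 were lower, at a median of −1.37. SRP14 was at 309 FPKM in young mitoplasts and 277 FPKM in young whole cells, and SRP72 at 30.7 FPKM in young mitoplasts and 30.6 FPKM in young whole cells. SRP9 was at 55.6 FPKM in young mitoplasts and 17.5 FPKM in young whole cells, a log2 ratio of 1.61, which was −0.87 with the assembled transcript of its locus in whole cells. SRP68, a scaffold of the particle, was at 46.2 FPKM in young mitoplasts and 18.3 FPKM in young whole cells, a log2 ratio of 1.29. Nonsense-mediated decay transcripts held most of its mitoplast value, 75.4% in that of 507 nt alone, and its coding transcripts gave −0.97. SRP54 was at 22.3 FPKM in young mitoplasts, wholly in a nonsense-mediated decay transcript, and at 39.3 FPKM in young whole cells. Both ratios counted as higher thus depended on which transcripts were summed, and SRP14 and SRP72 had coding transcripts at about the whole-cell level.

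Genes of the membrane and lumen were lower in young mitoplasts by varied amounts. SEC61A1 was at 19.0 FPKM in young mitoplasts and 116 FPKM in young whole cells, a log2 ratio of −2.54. SEC62 was at 24.3 FPKM in young mitoplasts and 101 FPKM in young whole cells, SSR1 at 1.04 FPKM in young mitoplasts and 13.4 FPKM in young whole cells, and SSR4 at 62.5 FPKM in young mitoplasts and 180 FPKM in young whole cells. SEC61B, in contrast, was at 38.0 FPKM in young mitoplasts and 39.6 FPKM in young whole cells. The translocon list had 4 of 8 lower and 1 higher, beside 37.6% and 11.6% of all coding genes. The higher gene was SEC63, at 30.6 FPKM in young mitoplasts and 13.9 FPKM in young whole cells. Its log2 ratio was 1.08, and −1.40 from coding transcripts. Retained-intron transcripts of 606 and 2025 nt held 53.1% and 31.7% of its mitoplast value. SSR2 and SSR3 were within the threshold at −0.81 and −0.42. From coding transcripts SSR3 was past it, at −1.29, and SSR4 was within it, at −0.68. The translocon list then had 5 of 8 lower and 0 higher, beside 34.1% and 10.3% of coding genes.

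All 3 isomerases compared were lower in young mitoplasts, with log2 ratios of −1.37 for PDIA4, −2.15 for PDIA6 and −1.83 for P4HB. Of all coding genes 37.6% were lower there. PDIA6 was at 17.7 FPKM in young mitoplasts and 81.8 FPKM in young whole cells. Of the 6 chaperones and lectins, 5 were lower: HSPA5 was at 51.1 FPKM in young mitoplasts and 136 FPKM in young whole cells, HSP90B1 at 56.5 FPKM in young mitoplasts and 144 FPKM in young whole cells, and DNAJC3 at 4.24 FPKM in young mitoplasts and 20.5 FPKM in young whole cells. CALR and SDF2L1 were at −1.45 and −1.01, and CANX lay within the threshold at −0.75. The young whole-cell value of CALR lay wholly in a retained-intron transcript. Its coding transcripts were at 30.8 FPKM in young mitoplasts and listed at 0 in young whole cells. With assembled transcripts of its locus the log2 ratio of CALR was −1.67. SEL1L was at 6.72 FPKM in young mitoplasts and 41.0 FPKM in young whole cells, and HERPUD1 at 31.0 FPKM in young mitoplasts and 72.8 FPKM in young whole cells. XBP1 was at 9.48 FPKM in young mitoplasts and 23.9 FPKM in young whole cells.

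Of the 5 oligosaccharyltransferase genes compared in young mitoplasts, 2 were lower and 0 higher, a share of lower genes near the 37.6% among all coding genes. DAD1 was at 148 FPKM in young mitoplasts and 130 FPKM in young whole cells. STT3A was at 48.9 FPKM in young mitoplasts and 33.7 FPKM in young whole cells from all transcripts, but at 15.5 FPKM in young mitoplasts and 33.7 FPKM in young whole cells from coding transcripts. RPN1 was at 18.9 FPKM in young mitoplasts and 63.3 FPKM in young whole cells, and RPN2 at 20.0 FPKM in young mitoplasts and 29.9 FPKM in young whole cells. OSTC was at 18.9 FPKM in young mitoplasts and 72.5 FPKM in young whole cells, a log2 ratio of −1.89 that was 0.23 from coding transcripts. DDOST was at 5.87 FPKM in young mitoplasts and listed at 0 in young whole cells.

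In senescent cells most reticulum genes were again lower in mitoplasts, and so were most coding genes. Of 28 genes compared between senescent mitoplasts and senescent whole cells, 18 were lower and 2 higher, with a median log2 ratio of −1.32. Among 4764 coding genes, 52.4% were lower and 15.6% higher, at a median of −1.10. The share of lower members, 64.3%, was thus nearer to the background than in young cells. After a rescaling that put the median ratio of coding genes near 0, a shift of −1.07 in this comparison, 7 of the 28 were lower and 3 higher, beside 31.8% and 28.5% of coding genes. The same rescaling in young cells, a shift of −0.28, left 14 of 30 lower and 3 higher, beside 32.7% and 16.5% of coding genes. The median of the coding genes compared was then −0.10 in senescent and −0.23 in young cells, so the centring was less complete in young cells. From coding transcripts alone, 19 of 27 were lower and 2 higher in senescent mitoplasts, beside 60.7% and 10.5% of coding genes; with assembled and unmatched transcripts added, 22 of 33 were lower and 1 higher, beside 56.6% and 12.3%. Listed at 0 in senescent mitoplasts alone were SRP54, SRPRB, SEC61A1, STT3B, RPN1, SDF2L1 and EIF2AK3; with assembled and unmatched transcripts SEC61A1 was at 20.5 FPKM and RPN1 at 19.0 FPKM there. DNAJB11 was at 9.73 FPKM in senescent mitoplasts, wholly outside coding transcripts, and listed at 0 in senescent whole cells. The other 7 genes at 0 were so in both, and ERN1 averaged below 5 FPKM.

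The lowest ratios in senescent cells belonged to the BiP cochaperone DNAJC3 and to OSTC. DNAJC3 was at 0.304 FPKM in senescent mitoplasts and 33.8 FPKM in senescent whole cells, a log2 ratio of −4.74, and OSTC at 4.34 FPKM in senescent mitoplasts and 99.4 FPKM in senescent whole cells, a log2 ratio of −4.23. PDIA4, ATF6 and SYVN1 were next, at 3.13, 1.46 and 1.07 FPKM in senescent mitoplasts, against 32.9, 17.2 and 12.4 FPKM in senescent whole cells, with log2 ratios between −3.04 and −2.69. HSPA5 was at 28.4 FPKM in senescent mitoplasts and 114 FPKM in senescent whole cells. All 3 isomerases and all 3 degradation genes were lower, as were 3 of 5 chaperones and lectins, beside 52.4% of all coding genes. After rescaling these were 1, 2 and 1, beside 31.8%. For P4HB the transcript of 353 nt held 69.7% of the senescent whole-cell value and was listed at 0 in senescent mitoplasts. SRP72, SEC61B and RPN2 were at 24.5, 19.4 and 21.9 FPKM in senescent mitoplasts, against 31.6, 23.2 and 47.4 FPKM in senescent whole cells; of these only RPN2 was past the threshold, at −1.08. HSP90B1 had a log2 ratio of −1.33 in senescent and in young cells alike, but of −0.27 in senescent and −1.06 in young cells after rescaling. A coding transcript of 694 nt, listed at 0 in the other libraries, held 54.2% of its senescent mitoplast value.

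The signal recognition particle had 0 of 4 genes higher and 1 lower in senescent mitoplasts, beside 15.6% and 52.4% of all coding genes. After rescaling 1 was higher and 0 lower, beside 28.5% and 31.8%. The gene higher after rescaling was SRP68, at a log2 ratio of 0.75 that became 1.78. Its coding transcripts were listed at 0 in senescent mitoplasts, where a nonsense-mediated decay transcript of 507 nt held 83.8% of its value. The lower gene was SRP14, at 97.4 FPKM in senescent mitoplasts and 266 FPKM in senescent whole cells, a log2 ratio of −1.44 that was −0.38 after rescaling. SRP54 and SRPRB were listed at 0 in senescent mitoplasts.

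SSR1 and CALR were the 2 genes higher in senescent mitoplasts, and neither was so under every way of summing. SSR1 was at 92.8 FPKM in senescent mitoplasts and 27.5 FPKM in senescent whole cells, a log2 ratio of 1.72. Noncoding transcripts of 570 and 446 nt held 51.0% and 35.0% of that mitoplast value, and the coding transcripts gave 13.0 FPKM in senescent mitoplasts and 27.5 FPKM in senescent whole cells. CALR was at 223 FPKM in senescent mitoplasts and 66.2 FPKM in senescent whole cells, a log2 ratio of 1.73, spread over 4 transcripts of which the 1903-nt coding form held 15.1%. Adding assembled transcripts left it at 223 FPKM in senescent mitoplasts and put it at 304 FPKM in senescent whole cells, a log2 ratio of −0.45. CANX, at 150 FPKM in senescent mitoplasts and 159 FPKM in senescent whole cells, had 63.3% of its mitoplast value in a coding transcript of 592 nt.

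**Figure D4:**
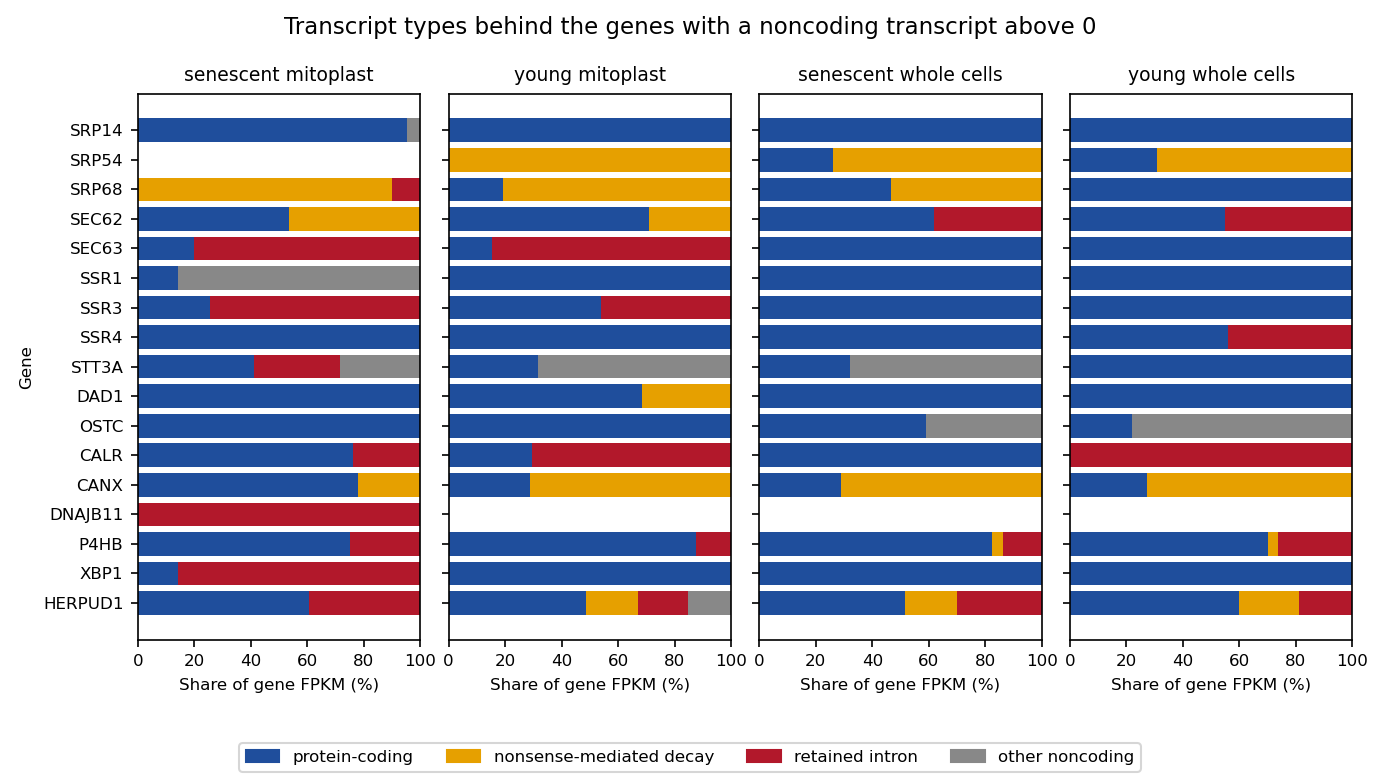
Share of each gene's FPKM by transcript type in each library, in percent, for the 17 genes with a noncoding transcript above 0; blue is protein-coding, orange nonsense-mediated decay, red retained intron and grey other noncoding. XBP1 and SSR1 lie mostly outside coding transcripts in senescent mitoplasts, as CALR does wholly in young whole cells.

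Transcript make-up differed between the libraries for the set as a whole. The shares and lengths below were not computed over all coding genes, so whether they are particular to the set was not tested. In senescent over young mitoplasts, coding transcripts alone left 24 members compared in place of 25, and 2650 coding genes in place of 4457. Coding transcripts held 70.2% of the members' summed FPKM in senescent and 78.9% in young mitoplasts, against 83.6% in senescent and 72.3% in young whole cells. The median length of a gene's leading transcript was 666.5 nt in senescent and 1116 nt in young mitoplasts, against 1889.5 nt in senescent and 2091.5 nt in young whole cells. Genes led by a transcript under 600 nt numbered 13 of 30 in senescent and 9 of 33 in young mitoplasts, against 6 of 36 in senescent and 8 of 38 in young whole cells. FPKM divides by transcript length, so a given number of fragments counts for more on a shorter transcript; the part of these lengths in the ratios was not tested.

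The last comparison set senescent against young mitoplasts. Of 25 genes compared, 4 were higher and 5 lower, and the median log2 ratio was −0.16. Among 4457 coding genes, 22.5% were higher and 42.6% lower, at a median of −0.64, so fewer of the members were lower than of coding genes as a whole. Rescaling by the shift of −0.69 gave 7 higher and 3 lower, beside 32.2% and 28.9% of coding genes. From coding transcripts alone, 5 of 24 were higher and 7 lower, beside 16.1% and 52.0% of coding genes; with assembled and unmatched transcripts added, 3 of 29 were higher and 6 lower, beside 19.8% and 44.4%. The 5 lower genes were SRP9, at 21.98 FPKM in senescent and 55.6 FPKM in young mitoplasts, SRP14, at 97.4 FPKM in senescent and 309 FPKM in young mitoplasts, DAD1, at 35.2 FPKM in senescent and 148 FPKM in young mitoplasts, OSTC and PDIA4. OSTC was at 4.34 FPKM in senescent and 18.9 FPKM in young mitoplasts and PDIA4 at 3.13 FPKM in senescent and 20.5 FPKM in young mitoplasts. Log2 ratios of the 5 were −1.30, −1.66, −2.04, −1.90 and −2.38 in that order. From coding transcripts DAD1 was at 35.2 FPKM in senescent and 101 FPKM in young mitoplasts.

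The 4 higher genes were SSR1, SEC62, CALR and STT3A. SSR1 was at 92.8 FPKM in senescent and 1.04 FPKM in young mitoplasts, a log2 ratio of 5.53, and coding transcripts gave 13.0 FPKM in senescent and 1.04 FPKM in young mitoplasts, a ratio of 2.78. SEC62 was at 67.9 FPKM in senescent and 24.3 FPKM in young mitoplasts, and its coding transcripts gave 1.03. STT3A was at 103 FPKM in senescent and 48.9 FPKM in young mitoplasts, a log2 ratio of 1.06, which was −2.13 over transcripts of 600 nt or longer. CALR was at 223 FPKM in senescent and 104 FPKM in young mitoplasts, a log2 ratio of 1.09. With assembled transcripts of its locus it was at 223 FPKM in senescent and 158 FPKM in young mitoplasts, a ratio of 0.49 that lies within the threshold. HSPA5 lay within the threshold, at 28.4 FPKM in senescent and 51.1 FPKM in young mitoplasts, and HERPUD1 was at 30.9 FPKM in senescent and 31.0 FPKM in young mitoplasts. Not compared were SRP54, SEC61A1, RPN1, SDF2L1 and DDOST, listed at 0 in senescent mitoplasts alone, DNAJB11 and SYVN1, listed at 0 in young mitoplasts alone, 9 genes listed at 0 in both, and ATF6, ERN1 and DNAJC3, which averaged below 5 FPKM.

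Lists outside the set gave the fraction comparison a scale. In young mitoplasts over young whole cells, the 80 other pathway genes had 54 compared, 0 higher and 27 lower, at a median log2 ratio of −0.98, beside 11.6% higher and 37.6% lower among all coding genes. After rescaling, 2 of them were higher and 23 lower, beside 16.5% and 32.7% of coding genes. CRELD2, an isomerase-like stress protein, was at 1.13 FPKM in young mitoplasts and 19.9 FPKM in young whole cells, and OS9, a lectin of the degradation path, at 17.4 FPKM in young mitoplasts and 125 FPKM in young whole cells. Cytosolic chaperones, made on free ribosomes, had 26 compared, 2 higher and 2 lower, at a median of 0.13 (6 higher and 1 lower after rescaling), and mitochondrial chaperones and proteases 11 compared, 0 higher and 2 lower, at a median of 0.17. In senescent mitoplasts over senescent whole cells, the other pathway genes had 4 of 49 higher and 30 lower, at a median of −1.29, and cytosolic chaperones 0 of 20 higher and 14 lower, at a median of −1.72, beside 15.6% higher and 52.4% lower among all coding genes. Mitochondrial chaperones there had 0 of 8 higher and 2 lower, at a median of −0.04. After rescaling, the other pathway genes had 9 higher and 12 lower, at a median of −0.27, cytosolic chaperones 3 higher and 7 lower, at a median of −0.68, and mitochondrial chaperones 4 higher and 1 lower, beside 28.5% and 31.8% of coding genes. No difference between lists was tested.

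**Figure D5:**
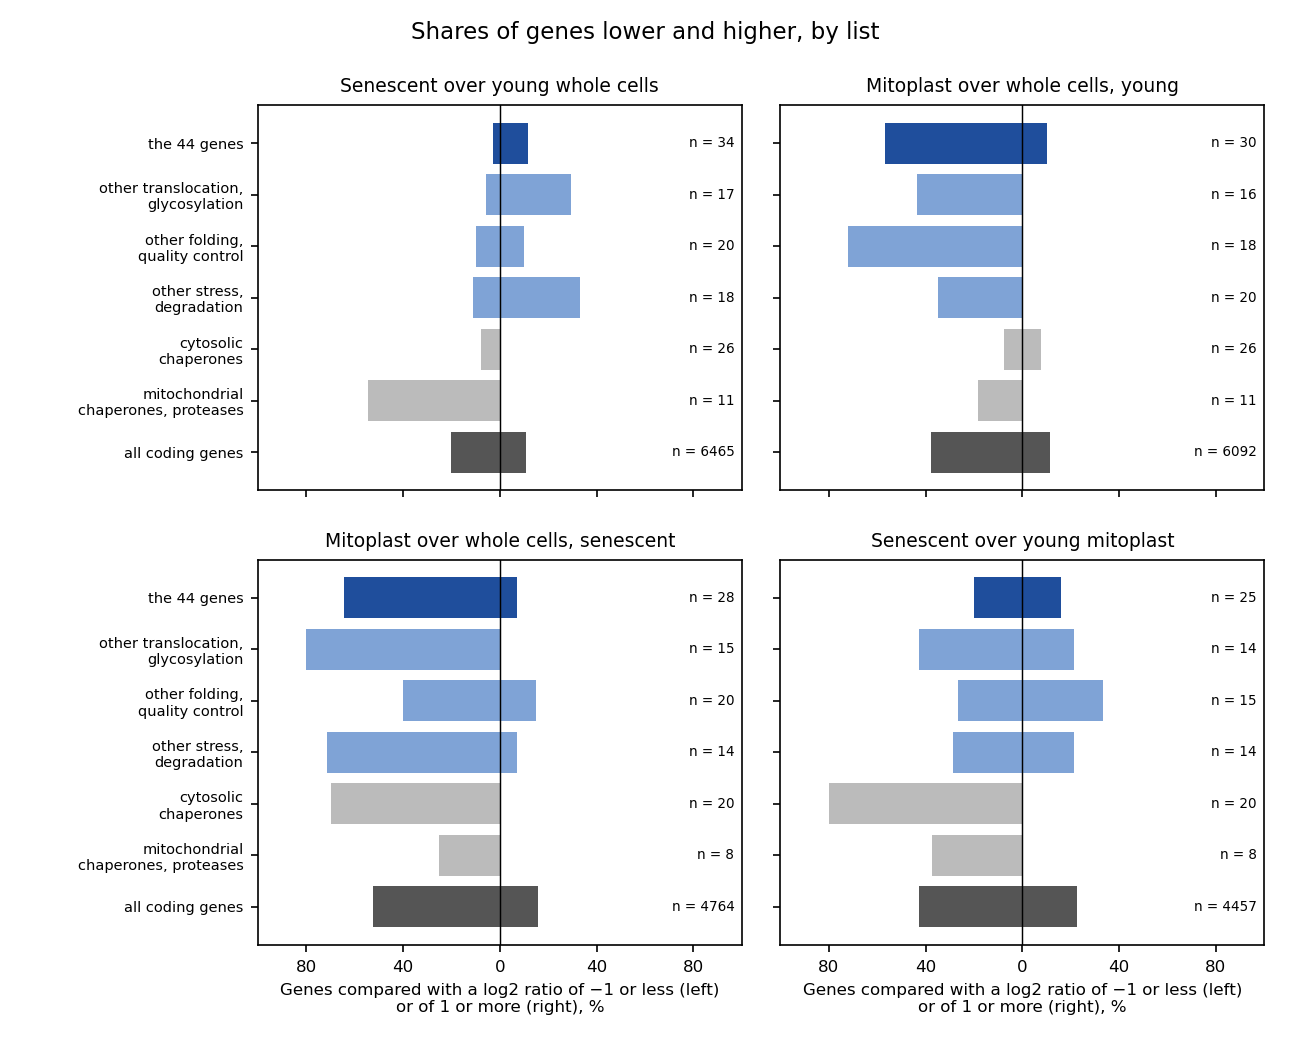
Share of genes compared with a log2 ratio of −1 or less (left of 0) or of 1 or more (right of 0), in percent, for the 44 genes, the 3 lists of other pathway genes, the cytosolic and mitochondrial chaperone lists and all coding genes, in 4 comparisons; n is the number compared. In young mitoplasts over young whole cells the 44 genes have 17 of 30 lower, while the cytosolic chaperones have 2 of 26 lower.

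The genes with a stress element were counted in mitoplasts as well. In young mitoplasts over young whole cells, 7 of the 8 holders compared were lower and 0 higher, at a median of −1.29; CANX was the exception, at −0.75. After rescaling 4 of the 8 were lower, beside 32.7% of coding genes. Of the 21 other genes with a promoter entry, 9 were lower and 3 higher, at a median of −0.79; among all coding genes 37.6% were lower and 11.6% higher. In senescent mitoplasts over senescent whole cells, 5 of 7 holders were lower and 1, CALR, was higher, at a median of −1.33, beside 13 of 21 lower and 1 higher among the others, with a median of −1.30, and 52.4% lower and 15.6% higher among all coding genes. After rescaling 0 of the 7 holders were lower and CALR alone was higher, while 7 of the 21 others were lower and 2 higher. Of coding genes 31.8% were lower and 28.5% higher after it. In senescent over young mitoplasts, 1 of 7 holders was higher and 0 lower, at a median of 0.10, beside 3 of 18 higher and 5 lower among the others, and 22.5% higher and 42.6% lower among all coding genes. After rescaling 3 of the 7 holders were higher and 0 lower, and 4 of the 18 others were higher and 3 lower. Of coding genes 32.2% were higher and 28.9% lower after this rescaling.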

How the data were processed

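RNA-seq of 4 WI-38 libraries was analysed: senescent and young mitoplasts and senescent and young whole cells, 1 library per group. The deposited values are FPKM per transcript, which the authors made; build hg19 and the tools Cuffdiff, Cufflinks 2.2.1 and TopHat2 2.0.14 are listed, with no role or order, per the submitters' processing notes. The annotation release, the strand setting and the number of fragments are not stated in the sources used here, so overlapping antisense genes cannot be told apart and no interval is given. Each file lists 393483 transcripts. Between 92.97% and 92.99% of annotated transcripts were matched by identifier to GENCODE 29, used for names, types and lengths only, since its build differs. A gene's level is the sum of its annotated transcripts. Genes were compared as log2 ratios with a pseudocount of 1 FPKM where the mean of both libraries was 5 FPKM or more and neither was 0. Called genes are past a log2 ratio of 1. No test was made, with 1 library per group; the counting code was tested on simulated data. All 44 members were named, and of the other lists up to 2 highest and 2 lowest genes. The members and lists were chosen with earlier results of these data known. Alternatives were a pseudocount of 0.1 FPKM, no filter, a median-of-ratios rescaling, coding transcripts only, transcripts of 600 nt or longer, assembled transcripts of single-gene loci added, and zeros kept; adding also identifiers absent from GENCODE 29 was chosen after seeing the data. The work used Python 3.11.15, pandas 2.3.3, numpy 2.4.6 and matplotlib 3.10.9.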

Additional observations from a re-analysis of the deposited data

Results flagged for a closer look

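SSR1, a TRAP subunit, had opposite fraction ratios at the 2 doubling levels: its log2 ratio of mitoplasts over whole cells was 1.72 in senescent and −2.82 in young cells. From coding transcripts both were below 0, at −1.02 in senescent and −2.82 in young cells. CALR did likewise, with a log2 ratio of mitoplasts over whole cells of 1.73 in senescent and −1.45 in young cells. From coding transcripts CALR was at 30.8 FPKM in young mitoplasts and listed at 0 in young whole cells, so it had no young ratio. CALR also had opposite senescence ratios in the 2 fractions: senescent over young was 1.09 in mitoplasts and −2.09 in whole cells. With assembled transcripts of its locus, the fraction ratios of CALR were both below 0, at −0.45 in senescent and −1.67 in young cells, and its senescence ratios of 0.49 in mitoplasts and −0.73 in whole cells both lay within the threshold. With 1 library in each group these differences were not tested.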

How the results depend on the processing

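No paired analysis was possible because each group holds 1 library, and for the same reason no library could be left out. Another pseudocount, no filter and zeros kept cannot turn a direction. Under rescaling and the other choices of transcripts, 264 recomputed values of genes past the threshold gave 252 with their direction kept and 12 turned, and 219 kept their direction and stayed past the threshold. Rescaling took 16 of 54 inside it. Adding assembled transcripts of single-gene loci, with or without unmatched identifiers, turned CALR in senescent mitoplasts over whole cells to −0.45 and SRP9 in young mitoplasts over whole cells to −0.87. Coding transcripts alone turned OSTC to 0.23, SEC63 to −1.40 and SRP68 to −0.97 in young mitoplasts over whole cells, and SSR1 to −1.02 in senescent mitoplasts over whole cells. Transcripts of 600 nt or longer turned OSTC to 0.23, SRP68 to −0.65 and SSR1 to −1.02 in those comparisons, and STT3A in senescent over young mitoplasts to −2.13. In senescent over young whole cells the count of lower genes was 0 with coding transcripts, where CALR has no value, and 3 with zeros kept, and the count of higher genes was 2 with assembled transcripts under either setting. In senescent over young mitoplasts rescaling gave 7 higher and 3 lower, against 4 and 5, and zeros kept gave 8 lower. In young mitoplasts over whole cells, 1 gene in place of 3 was higher with coding transcripts and with assembled transcripts under either setting. In senescent mitoplasts over whole cells rescaling left 7 lower in place of 18, and 1 gene in place of 2 was higher over transcripts of 600 nt or longer and with assembled transcripts under either setting. The shift removed by rescaling was −0.17 in senescent over young whole cells. Except where the construction shows it, the cause was not tested. Ratios rest on sums in which short and unnamed transcripts weigh most in mitoplasts, and fragment numbers that would set the precision of low genes are unknown.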
